A study of Mus musculus with 8 samples.

Results

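The genes described here are the mouse Wnt ligands, their receptors and co-receptors, the R-spondin system, secreted Wnt inhibitors and a small set of intracellular effectors and targets, measured in leptin receptor positive (LEPR+) stromal cells of the bone marrow. They were chosen by name from the gene count matrix (symbols beginning Wnt, Fzd, Sfrp, Dkk or Rspo followed by a digit, plus 17 named genes), which gave 59 of 52636 rows. Of these, 19 were ligands, 10 Frizzled receptors, 4 co-receptors, 10 in the R-spondin class, 10 secreted inhibitors and 6 intracellular effectors or targets. One match, Rspo4os, is an antisense RNA and not an R-spondin.

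C57BL/6 mice were given LTβR-Ig, a soluble decoy built on the lymphotoxin β receptor, or, as controls, HEL-Ig, a control IgG1 against hen egg lysozyme. Either agent was given intravenously at 150 µg weekly over 3 weeks. Living cells negative for CD45, Ter119, CD31 and CD144 and positive for LEPR were then sorted, and sorted again, from collagenase-treated marrow of long bones, and their polyA RNA was sequenced. There were 4 LTβR-Ig and 4 control libraries, with 52378101 to 64403177 gene counts each. Age and sex are not given, nor is it stated whether each library came from its own mouse, so p-values reflect only how far the libraries spread, which may be technical. The design text speaks of 4 pairs without saying what a pair shares.

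Wnt proteins are secreted, lipid-modified signals that bind Frizzled receptors together with LRP5 or LRP6, which stabilises β-catenin and lets it act with TCF/LEF factors on target genes. Some Wnts, such as WNT5A and WNT11, act mainly through β-catenin independent routes with receptors such as ROR1 and ROR2. R-spondins bind LGR receptors and neutralise the ubiquitin ligases ZNRF3 and RNF43, which otherwise remove Frizzled from the cell surface. In marrow stroma Wnt signalling is known for favouring the osteoblast over the adipocyte fate.

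Each of the 12 markers of LEPR+ stroma was counted in every library. Lepr stood at 3160 to 4500 CPM (counts scaled to library size by TMM) in LTβR-Ig libraries and 4270 to 4370 CPM in control libraries, and Cxcl12 at 16900 to 21800 and 13400 to 18700 CPM. Of the list, 2 genes were lower with LTβR-Ig at an unadjusted edgeR p under 0.05, and for both the groups did not overlap. Among all genes 2.93% were lower at that level, and 2.53% were lower with groups that did not overlap. Kitl, which encodes stem cell factor, was at 1110 to 1400 CPM with LTβR-Ig and 1680 to 1940 CPM in controls (log2 fold change -0.58, edgeR adjusted p = 0.125), and Pdgfra at 293 to 389 and 407 to 461 CPM (-0.29, edgeR adjusted p = 0.649). LTβR-Ig replicate 2 and control replicate 3 were the extremes of principal component 1 of log2 CPM (18.9% of the variance), at 130.1 and -79.3 against -33.0 to 16.5 for the other 6, so gene counts were also taken without them. In bulk RNA, fewer cells of a type and less RNA per cell cannot be told apart.

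The clearest differences among the Wnt genes were in the ligand Wnt11, the receptor gene Fzd4 and the inhibitor gene Sfrp2. For each, the lowest LTβR-Ig value exceeded the highest control value, with fitted ratios of 5.64, 1.88 and 2.44. None of the 3 passed an adjusted p of 0.05 in edgeR's quasi-likelihood test over all genes, while DESeq2's Wald test called all 3. Of the 36 tested genes 28 (77.8%) had a positive log2 fold change, against 49.7% of all genes. The opposite direction was seen in Rspo2, at a ratio of 1.45 lower, with overlapping groups. The best-known transcriptional readouts of β-catenin signalling, Axin2 and Lef1, stayed under 4 CPM in every library. Of the feedback inhibitor genes of the Naked family, Nkd2 was at 20.96 to 55.0 CPM and Nkd1 at 2.43 to 7.88 CPM.

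Of the 59 genes, 36 had enough counts to be tested. The other 23 comprised 14 with no count in any library and 9 with counts in some, at most 138 in a library. Among the tested genes 31 had counts in every library, and the other 5 (Wnt9a, Fzd6, Rnf43, Dkk1 and Lef1) had 0 in at least 1 library. By edgeR with Benjamini-Hochberg adjustment over 16045 genes, 0 of 36 Wnt genes passed, against 6 of all genes (0.0374%). At an unadjusted p under 0.05, 7 Wnt genes were higher (19.4% of those tested) against 3.39% of all genes, and 1 was lower (2.78%) against 2.93%. These 8 genes had at least 53 counts in every library. The groups did not overlap for 3 genes, all higher (8.33%), against 2.36% higher and 2.53% lower among all genes. DESeq2 called 3 Wnt genes, all higher, against 0.552% of all genes higher and 0.697% lower. The genes were selected with earlier results of these data known, so the shares are a description.

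**Figure D1:**
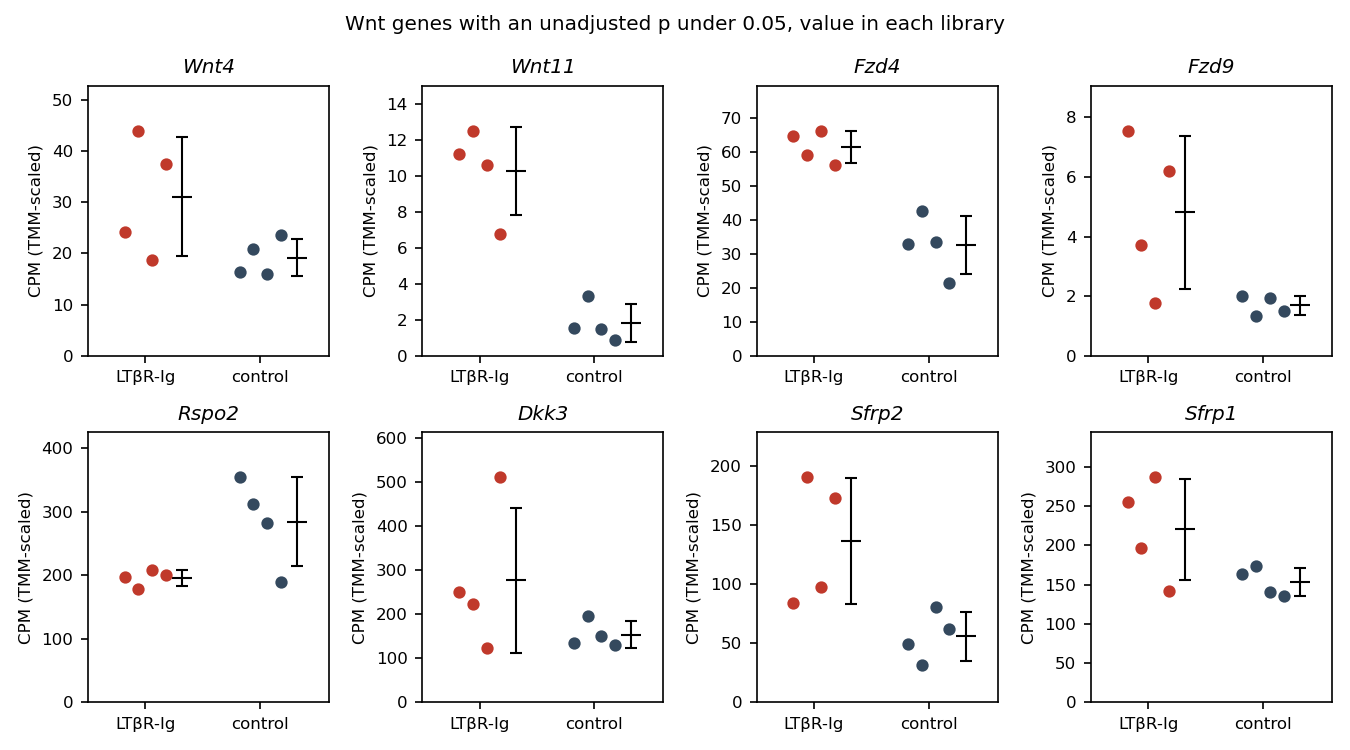
TMM-scaled CPM (y axis, from 0) in each LTβR-Ig (red, left) and control (dark, right) library for the 8 Wnt genes with an unadjusted edgeR p under 0.05. The bar is the mean with its SD over 4 libraries. The groups are apart for Wnt11, Fzd4 and Sfrp2 and overlap for the other 5 genes.

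Of 19 Wnt genes 5 were tested, 4 more had counts in 1 to 3 libraries, and 10 (Wnt1, Wnt3, Wnt3a, Wnt7a, Wnt7b, Wnt8a, Wnt8b, Wnt9b, Wnt10a and Wnt10b) had no count in any library. With a floor of 3 counts, which covers counting error only, a gene at 0 lay below 3 counts in each library. Libraries can differ by more than that, as Wnt2 had 92 counts in control replicate 1 and 0 in every other library. All 5 tested ligands had a positive log2 fold change, with a median of 0.70 against -0.0021 over all tested genes.

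Wnt11 encodes a ligand best known for β-catenin independent signalling (ENSMUSG00000015957.12, chromosome 7, 98835112 to 98855195, plus strand, mm10). It was at 11.2, 12.5, 10.6 and 6.79 CPM in LTβR-Ig replicates 1 to 4, against 1.55, 3.34, 1.48 and 0.904 CPM in control replicates 1 to 4. The lowest LTβR-Ig library stood above the highest control library. Its log2 fold change was 2.50 (SE 0.46, 95% interval 1.45 to 3.54, edgeR adjusted p = 0.157), with a DESeq2 adjusted p of 7.03e-05. The edgeR adjusted p was 0.0895 with a stricter filter on low counts and 0.58 without LTβR-Ig replicate 2 and control replicate 3. The stricter filter asked for a mean of 5 CPM over all libraries. Wnt11, with a control mean of 1.82 CPM, passed it only through its LTβR-Ig values, so 0.0895 is no added support. Raw counts lay between 53 and 692, so the gene was low but counted in every library.

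Wnt4, a ligand with roles in kidney, gonad and bone, had the highest ligand level per length, at 7.42 ± 2.77 CPM per kb of exon with LTβR-Ig and 4.58 ± 0.873 CPM per kb in controls (SD, n = 4 each). It was at 24.15, 43.9, 18.8 and 37.6 CPM in LTβR-Ig libraries, against 16.3, 20.9, 16.0 and 23.5 CPM in control libraries. LTβR-Ig replicate 3 lay inside the control range. The log2 fold change was 0.70 (SE 0.29, edgeR adjusted p = 0.754), and 0.40 without LTβR-Ig replicate 2 and control replicate 3.

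Wnt5b followed in level, at 18.5, 16.8, 13.3 and 14.05 CPM with LTβR-Ig and 10.5, 10.6, 15.2 and 6.93 CPM in controls. Here control replicate 3 lay among the LTβR-Ig libraries (log2 fold change 0.53, SE 0.27, edgeR adjusted p = 0.879). The related Wnt5a, the standard β-catenin independent ligand, varied widely within both groups, at 3.50, 7.64, 20.4 and 19.9 CPM with LTβR-Ig and 15.7, 11.1, 1.41 and 13.2 CPM in controls. Its log2 fold change of 0.31 had a 95% interval of -1.37 to 1.99. Wnt9a was at 1.09 to 3.51 CPM with LTβR-Ig and 0 to 1.46 CPM in controls, with overlapping groups.

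Summed over all 19 ligands, the level per length was 16.3, 22.2, 15.2 and 19.1 CPM per kb in LTβR-Ig libraries, against 11.2, 11.2, 10.5 and 10.7 CPM per kb in control libraries. Every LTβR-Ig library was above every control library. Without Wnt11 the sums were 13.6, 19.2, 12.6 and 17.5 CPM per kb with LTβR-Ig and 10.8, 10.4, 10.2 and 10.5 CPM per kb in controls, again with no overlap. Leaving out Wnt11 was not planned. The 4 control sums differed little from each other (SD 0.337) although Wnt5a and Wnt5b each varied within the control group.

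**Figure D2:**
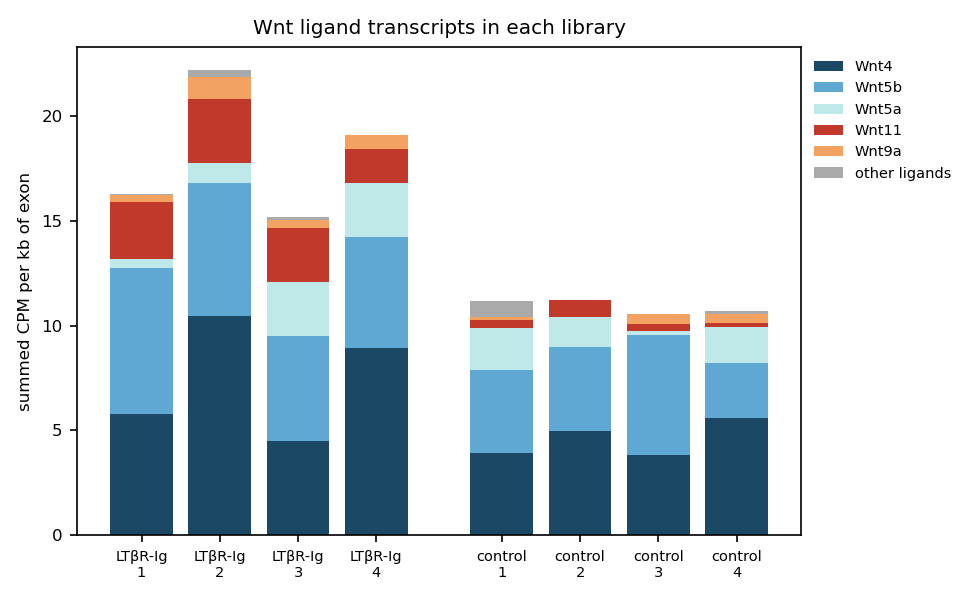
Summed level of Wnt ligand transcripts (y axis, CPM per kb of exon, from 0) in each library, LTβR-Ig at the left and control at the right, stacked by gene. LTβR-Ig libraries reach 15.2 to 22.2 and control libraries 10.5 to 11.2, and the red Wnt11 segment is taller in every LTβR-Ig library.

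Receptors were abundant relative to the ligands, with a summed Frizzled level per length of 99.4 ± 10.5 CPM per kb in LTβR-Ig libraries and 85.8 ± 10.7 CPM per kb in control libraries (SD, n = 4 each). All 10 Frizzled genes but Fzd10 were tested. Fzd1 had the highest level per length, at 50.2 ± 8.65 CPM per kb with LTβR-Ig and 37.4 ± 8.21 CPM per kb in controls, followed by Fzd5, Fzd7 and Fzd4 (SD, n = 4 each). The class median log2 fold change was 0.18, with 6 genes positive and 3 negative. The median was -0.0259 on leaving out LTβR-Ig replicate 2, and -0.0895 on leaving out control replicate 1.

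Fzd4 encodes the receptor for several Wnts and for norrin (ENSMUSG00000049791.4, chromosome 7, 89404355 to 89413134, plus strand). It was at 64.5, 59.1, 66.1 and 56.1 CPM in LTβR-Ig libraries, against 33.0, 42.6, 33.3 and 21.6 CPM in control libraries. The LTβR-Ig values lay close together and wholly above the controls. The log2 fold change was 0.91 (SE 0.20, 95% interval 0.46 to 1.37, edgeR adjusted p = 0.23), and DESeq2 gave an adjusted p of 0.00698. Endothelial cells also make Fzd4, and their marker list was set beside it. Its 9 genes took 0.00366, 0.00707, 0.0316 and 0.0128% of counts in LTβR-Ig libraries and 0.00682, 0.00522, 0.00771 and 0.0162% in control libraries. The list's median log2 fold change was 0.67, with 0 of 9 genes at an unadjusted p under 0.05, and none of the 9 was at 0 throughout. The part of endothelial cells in the Fzd4 result was not tested.

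Fzd9 was low, at 7.54, 3.72, 1.76 and 6.21 CPM with LTβR-Ig and 2.01, 1.33, 1.93 and 1.52 CPM in controls. LTβR-Ig replicate 3 lay inside the control range (log2 fold change 1.501, SE 0.53, edgeR adjusted p = 0.646). Fzd1 was at 183, 252, 230 and 178 CPM with LTβR-Ig, against 181, 182, 109 and 155 CPM in controls (log2 fold change 0.43, SE 0.19, edgeR adjusted p = 0.789). Fzd5 was at 138, 174, 151 and 128 CPM with LTβR-Ig, against 165, 151, 164 and 236 CPM in controls (log2 fold change -0.28, SE 0.16, edgeR adjusted p = 0.94). Fzd5 shares 1233 exon bases with Gm38058 on the other strand, which averaged 67.5 counts. Fzd7 was at 47.7, 44.6, 43.95 and 62.0 CPM with LTβR-Ig, against 49.4, 60.8, 46.8 and 59.3 CPM in controls (log2 fold change -0.13, SE 0.16). Fzd8, Fzd3 and Fzd2 had log2 fold changes between 0.015 and 0.31. All tested Frizzled genes other than Fzd4 had overlapping groups. Fzd6 had 0 counts in 4 of 8 libraries and a 95% interval of -6.83 to 3.12.

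Among co-receptors, Lrp6 had by far the higher level of the LRP pair. It was at 6.67 ± 1.40 CPM per kb with LTβR-Ig and 6.45 ± 1.41 CPM per kb in controls, against 0.501 ± 0.194 and 0.266 ± 0.0491 CPM per kb for Lrp5 (SD, n = 4 each). Lrp6 was at 113, 71.7, 79.2 and 101 CPM with LTβR-Ig and 66.4, 111, 96.2 and 79.5 CPM in controls, with a log2 fold change of 0.05 (95% interval -0.40 to 0.50). Lrp5 was at 2.09, 6.17, 5.33 and 5.93 CPM with LTβR-Ig, against 2.38, 2.11, 2.66 and 3.22 CPM in controls. In 3 of 4 LTβR-Ig libraries it exceeded every control, and in replicate 1 it was just below all of them (log2 fold change 0.91, SE 0.45, edgeR adjusted p = 0.856).

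The β-catenin independent co-receptor gene Ror1 was at 15.4, 16.5, 19.8 and 11.2 CPM with LTβR-Ig and 18.5, 19.1, 18.6 and 30.2 CPM in controls (log2 fold change -0.46, SE 0.25, edgeR adjusted p = 0.921). Its relative Ror2 was at 3.19, 4.57, 2.42 and 5.12 CPM with LTβR-Ig and 3.13, 2.84, 5.85 and 3.65 CPM in controls. The log2 fold change of Ror2 was -0.02 (95% interval -0.99 to 0.95).

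**Figure D3:**
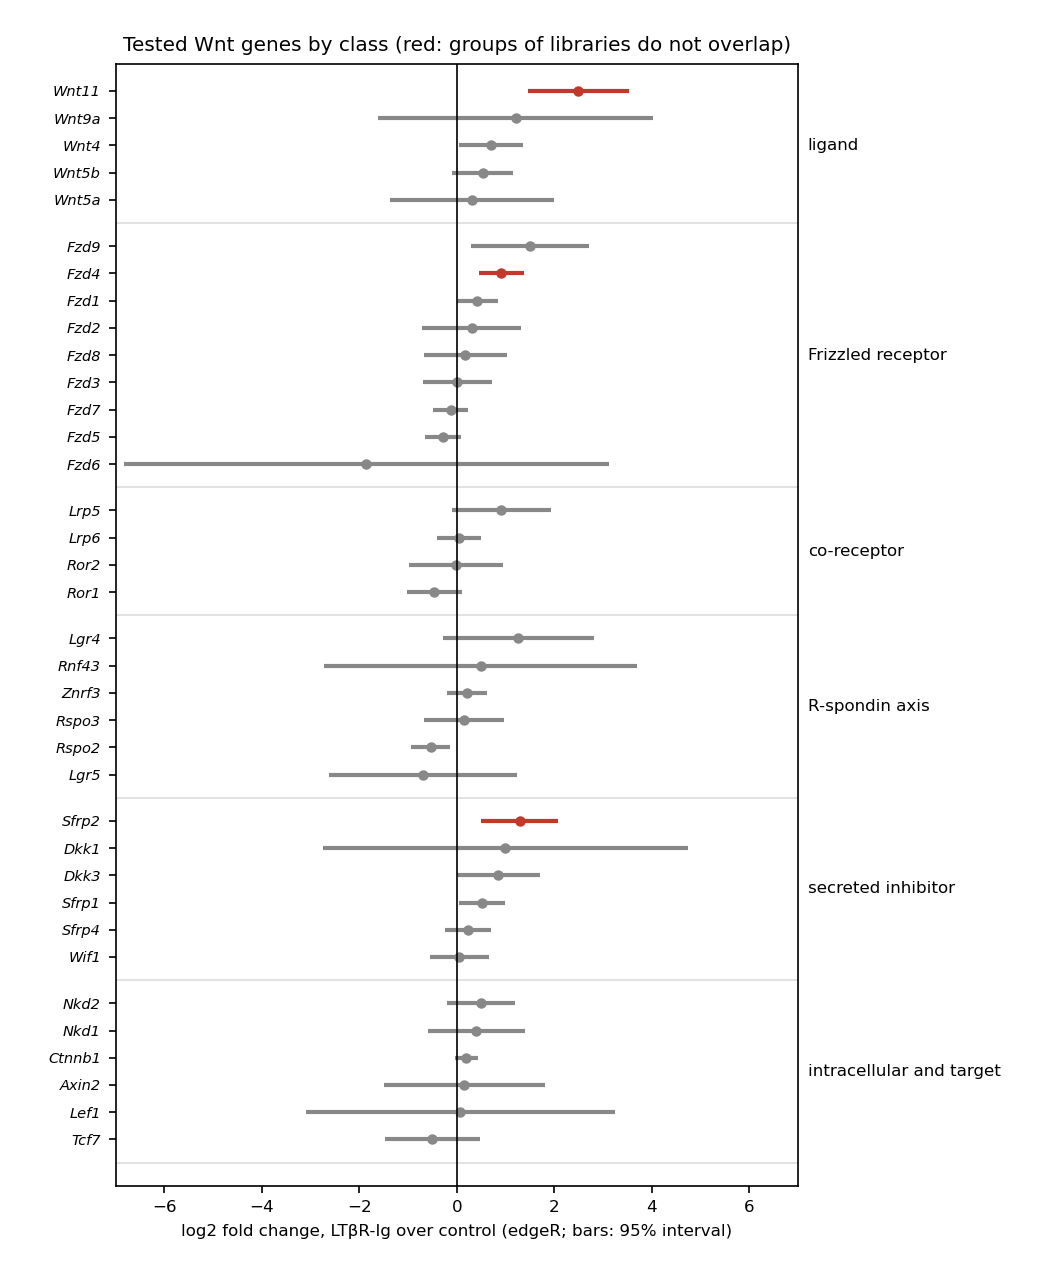
Log2 fold change of LTβR-Ig over control (x axis) with its 95% interval for the 36 tested Wnt genes, grouped by class. Red marks Wnt11 (2.50), Fzd4 (0.91) and Sfrp2 (1.29), whose library groups do not overlap. The intervals of low-count genes such as Fzd6, Dkk1 and Lef1 span several log2 units.

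Secreted inhibitors were the most abundant class. Sfrp4, a secreted Frizzled-related protein that binds Wnts, made up 53.2 to 73.2% of the class's summed level per length. It was at 1783, 2314, 1425 and 3082 CPM in LTβR-Ig libraries, against 1856, 1727, 1871 and 1855 CPM in control libraries. The LTβR-Ig libraries spread to both sides of the narrow control range (log2 fold change 0.24, SE 0.21, 95% interval -0.24 to 0.71). Without LTβR-Ig replicate 4 the log2 fold change of Sfrp4 was 0.01.

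Sfrp2 encodes another Frizzled-related protein (ENSMUSG00000027996.13, chromosome 3, 83766321 to 83774316, plus strand). It was at 83.9, 191, 97.8 and 173 CPM in LTβR-Ig libraries, against 49.3, 31.6, 80.5 and 62.1 CPM in control libraries. The highest control and the lowest LTβR-Ig library were close, and LTβR-Ig replicates 2 and 4 stood well above the rest. The log2 fold change was 1.29 (SE 0.35, 95% interval 0.50 to 2.08, edgeR adjusted p = 0.416), and DESeq2 gave an adjusted p of 0.015. An antisense gene, Gm26771, overlaps 347 bases of Sfrp2 exon and averaged 91.9 counts per library, against at least 2069 for Sfrp2.

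Sfrp1 was at 255, 197, 286 and 142 CPM with LTβR-Ig and 164, 173, 140 and 135 CPM in controls, so LTβR-Ig replicate 4 lay among the controls (log2 fold change 0.52, SE 0.21, edgeR adjusted p = 0.723). Dkk3, a divergent member of the Dickkopf family, was at 251, 223, 124 and 510 CPM with LTβR-Ig and 135, 197, 151 and 130 CPM in controls (log2 fold change 0.85, SE 0.38, edgeR adjusted p = 0.786). Without LTβR-Ig replicate 4 the value for Dkk3 was 0.38. Wif1, a Wnt-binding inhibitor, was at 195, 186, 364 and 255 CPM with LTβR-Ig and 151, 245, 263 and 306 CPM in controls, with a log2 fold change of 0.05 (95% interval -0.55 to 0.65).

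The LRP-binding inhibitor genes Dkk1, Dkk2 and Dkk4 were scarce. Dkk1 had 39 to 164 counts in LTβR-Ig libraries and 0, 60, 0 and 168 counts in control libraries. Dkk2, Dkk4 and Sfrp5 were below the filter, and Notum, which encodes an enzyme that strips the Wnt lipid, had no count in any library. All 6 tested inhibitors had a positive log2 fold change, with a median of 0.69. The summed level per length of the class was 680, 831, 640 and 1108 CPM per kb with LTβR-Ig and 607, 628, 671 and 669 CPM per kb in controls, with overlapping groups. Without Sfrp4 it was 254, 277, 299 and 371 CPM per kb with LTβR-Ig and 163, 215, 223 and 226 CPM per kb in controls, with no overlap. This sum was not planned and still holds Sfrp2, whose own groups were apart.

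Marker lists of cell types that could carry Wnt11 or Sfrp2 were set beside these genes. Osteoblast lineage markers (12 genes, none at 0 throughout) took 1.47, 2.30, 1.86 and 2.43% of counts in LTβR-Ig libraries, against 1.32, 1.35, 1.78 and 2.73% in control libraries. At an unadjusted edgeR p under 0.05, 4 of the 12 genes were higher and 0 lower, against 3.39% higher and 2.93% lower among all genes. The list's median log2 fold change was 0.53. The most abundant, Ibsp, was at 5610 to 15400 CPM with LTβR-Ig and 9390 to 16700 CPM in controls (log2 fold change -0.07). Ibsp exceeded Lepr in every library, so the share of this list does not measure cells other than LEPR+ stroma alone. Alpl, which encodes the alkaline phosphatase of bone-forming cells, was at 459 to 662 CPM with LTβR-Ig and 201 to 382 CPM in controls, with no overlap (log2 fold change 0.95, edgeR adjusted p = 0.223). Sp7, Mmp13 and Phex were the other 3 of the 4 higher markers, with log2 fold changes of 0.95, 1.00 and 0.34 and overlapping groups. Fibroblast markers (8 genes) took 0.0702 to 0.128% with LTβR-Ig and 0.0725 to 0.104% in controls, with 0 of 6 tested genes at an unadjusted p under 0.05. Chondrocyte markers (8 genes, 2 tested, 1 of them higher) took 0.0066 to 0.0215% and 0.003 to 0.0119%. The higher gene, Comp, was at 44.1 to 77.6 CPM with LTβR-Ig and 10.2 to 36.8 CPM in controls, with no overlap. Its log2 fold change was 1.26 (edgeR adjusted p = 0.46), while that of Col2a1 was 0.39 with overlapping groups. Within the fibroblast list Mfap5, named after its values were seen, was at 9.88 to 13.9 CPM with LTβR-Ig and 0.678 to 7.75 CPM in controls. Log2 fold changes in that list ran from -0.29 for S100a4 to 1.24 for Mfap5 (edgeR adjusted p = 0.841). The list's median was 0.46, and Dcn, its most abundant gene, had 0.13. The part of these cells in the Wnt11 and Sfrp2 results was not tested.

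The upstream sequences of the 3 genes whose groups did not overlap are shown because they are where a TCF/LEF or an NF-κB motif close to the start would lie. They are the RefSeq windows (GRCm38.p6) up to 250 bases before each annotated start, cut at the first GENCODE exon, on the plus strand. Capitals mark a TCF/LEF match.
Wnt11 upstream start, chr7:98834862-98835111: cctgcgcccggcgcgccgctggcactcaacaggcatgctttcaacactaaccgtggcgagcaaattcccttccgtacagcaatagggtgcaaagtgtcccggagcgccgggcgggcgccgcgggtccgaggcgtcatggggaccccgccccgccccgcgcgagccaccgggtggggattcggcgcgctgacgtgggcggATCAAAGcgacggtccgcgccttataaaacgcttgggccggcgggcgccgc
Wnt11 downstream start, chr7:98838595-98838844: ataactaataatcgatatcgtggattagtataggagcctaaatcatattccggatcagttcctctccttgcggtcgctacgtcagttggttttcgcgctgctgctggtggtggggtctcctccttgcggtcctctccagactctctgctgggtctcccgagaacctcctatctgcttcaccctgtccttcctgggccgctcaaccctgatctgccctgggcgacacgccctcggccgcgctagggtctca
Fzd4, chr7:89404116-89404354: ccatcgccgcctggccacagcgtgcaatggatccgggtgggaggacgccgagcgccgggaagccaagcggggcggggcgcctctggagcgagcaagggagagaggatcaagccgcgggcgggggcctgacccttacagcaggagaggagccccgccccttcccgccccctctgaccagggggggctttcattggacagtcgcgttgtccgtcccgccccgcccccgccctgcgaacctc
Sfrp2, chr3:83766071-83766320: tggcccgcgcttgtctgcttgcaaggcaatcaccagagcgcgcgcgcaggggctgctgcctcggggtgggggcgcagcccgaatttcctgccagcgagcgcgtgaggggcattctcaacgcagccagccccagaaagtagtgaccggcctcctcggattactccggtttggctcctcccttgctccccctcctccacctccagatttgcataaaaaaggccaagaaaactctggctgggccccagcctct
The searched TCF/LEF letters were CTTTGAA or CTTTGAT, as well as the variants CTTTGTA or else CTTTGTT, on both strands, and the NF-κB consensus was also searched on both strands. The upstream Wnt11 window held 1 TCF/LEF match, ATCAAAG, the reverse complement of CTTTGAT, beginning 51 bases before the start. The other 3 windows held neither motif. Among all 32851 mouse windows of 250 bases, 14.8% held a TCF/LEF match and 3.9% the NF-κB consensus. Of the 36 tested genes 22 had a window, 31 windows in all. Of these 31, 5 (16.1%) held a TCF/LEF match, 1 each of Wnt11, Wnt5b, Fzd7, Dkk1 and Lef1, and 0 the NF-κB consensus. A match describes the letters only and says nothing of binding.

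In the R-spondin class, Rspo2 and Rspo3 were the abundant members. Rspo2 (chromosome 15, 43020794 to 43170826) was at 198, 179, 208 and 201 CPM in LTβR-Ig libraries, against 354, 312, 282 and 189 CPM in control libraries. The LTβR-Ig values were tight and lay below 3 of the 4 controls, with control replicate 4 among them. The log2 fold change was -0.54 (SE 0.18, 95% interval -0.94 to -0.13, edgeR adjusted p = 0.586). It was the single Wnt gene lower at an unadjusted p under 0.05. Without LTβR-Ig replicate 2 and control replicate 3 its log2 fold change was -0.50 and 0 Wnt genes were lower at that level.

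Rspo3 was at 172, 138, 125 and 77.9 CPM with LTβR-Ig and 133, 124, 159 and 47.8 CPM in controls, with a log2 fold change of 0.15 (95% interval -0.67 to 0.96). In either group replicate 4 was the lowest. Rspo1 had 17 counts in 1 control library and 0 elsewhere, and Rspo4 had none. Per length, Rspo2 stood at 38.4 ± 2.43 CPM per kb with LTβR-Ig and 55.7 ± 13.7 CPM per kb in controls, and Rspo3 at 41.5 ± 12.6 and 37.5 ± 15.5 CPM per kb (SD, n = 4 each).

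Of the R-spondin receptors, Lgr4 was at 8.02, 10.2, 12.7 and 69.9 CPM with LTβR-Ig and 8.195, 11.25, 8.94 and 13.6 CPM in controls. This gene, named after its values were seen, had a log2 fold change of 1.26 (SE 0.68, edgeR adjusted p = 0.91). LTβR-Ig replicate 4 stood far above the rest, and the other 7 libraries overlapped. Lgr5 was at 0.794 to 7.23 CPM with LTβR-Ig and 1.07 to 8.915 CPM in controls, and Lgr6 had no count. The ubiquitin ligase gene Znrf3 was at 70.3, 77.5, 66.3 and 72.4 CPM with LTβR-Ig and 42.9, 75.2, 57.0 and 71.7 CPM in controls (log2 fold change 0.22, SE 0.18). Its partner Rnf43 was at 0 to 2.61 CPM with LTβR-Ig and 0.16 to 2.16 CPM in controls.

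**Figure D4:**
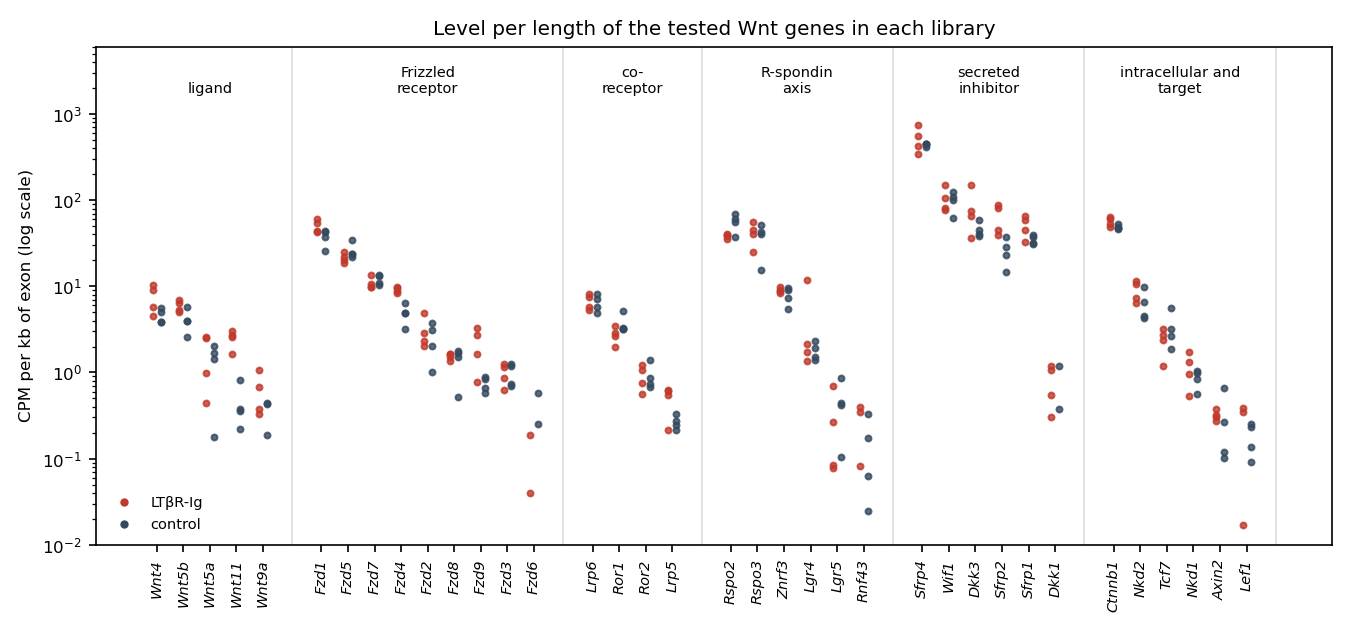
Level per length of the 36 tested Wnt genes (y axis, CPM per kb of exon, log scale) in each LTβR-Ig (red) and control (dark) library, ordered by mean level within each class. Libraries at 0 are not drawn. Sfrp4 lies above all other genes, while Axin2 and Lef1 lie below 1 CPM per kb in every library.

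Inside the cell, Ctnnb1, which encodes β-catenin, was at 251, 328, 311 and 275 CPM with LTβR-Ig and 241, 246, 253 and 275 CPM in controls. The log2 fold change was 0.20 (SE 0.11, 95% interval -0.04 to 0.44, edgeR adjusted p = 0.91). β-catenin is regulated mainly through protein stability, which RNA does not measure. Ulk4 overlaps 759 bases of its exons on the opposite strand and averaged 47.1 counts per library.

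Axin2, a negative-feedback target of β-catenin, was at 1.75, 1.68, 2.08 and 1.498 CPM with LTβR-Ig and 0.559, 1.48, 0.66 and 3.60 CPM in controls. The LTβR-Ig libraries lay within the control range, and the log2 fold change of 0.15 had a 95% interval of -1.50 to 1.81. Lef1, a TCF/LEF factor that is itself a target, was at 0, 0.151, 3.39 and 3.02 CPM with LTβR-Ig and 2.20, 1.19, 0.803 and 2.05 CPM in controls. Its interval of -3.10 to 3.24 covers large differences in either direction, so none could be shown given the spread between libraries. An antisense gene, Gm43352, overlaps 1208 bases of Lef1 exon and averaged 7.38 counts per library. Tcf7 was at 3.16, 8.36, 6.17 and 7.16 CPM with LTβR-Ig and 6.87, 4.96, 8.49 and 14.8 CPM in controls (log2 fold change -0.50, SE 0.43).

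The feedback inhibitors of the Naked family were also compared. Nkd2 was at 31.2, 55.0, 34.9 and 51.1 CPM with LTβR-Ig and 22.04, 47.3, 20.96 and 31.7 CPM in controls (log2 fold change 0.50, SE 0.31, edgeR adjusted p = 0.946). With the replicate number as a block, Nkd2 had a log2 fold change of 0.54 (edgeR adjusted p = 0.64). Nkd1 was at 2.43, 6.00, 7.88 and 4.34 CPM with LTβR-Ig and 4.52, 4.73, 2.59 and 3.79 CPM in controls (log2 fold change 0.40, SE 0.44). All 6 genes of this class overlapped between the groups, and the median log2 fold change was 0.18. The median was 0.38 without LTβR-Ig replicate 1, 0.0984 without LTβR-Ig replicate 3, 0.052 without control replicate 3 and 0.31 without control replicate 4.

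A further 97 Wnt pathway genes outside these families were looked at as lists, and 87 could be tested. At an unadjusted p under 0.05, 8 were higher (9.2%) and 1 lower (1.15%), against 3.39 and 2.93% of all genes, and none passed after edgeR adjustment over all genes. The groups did not overlap for 6 of the 87 genes (6.9%), all higher, against 2.36% higher and 2.53% lower among all genes. They were Tcf7l1, Dvl2, Tle1, Rhoa, Ptk7 and Mmp14. The median log2 fold change was 0.12. Without LTβR-Ig replicate 2 and control replicate 3 the count at an unadjusted p under 0.05 was 3 in place of 9. Leaving out LTβR-Ig replicate 2 alone gave 4, and leaving out any of LTβR-Ig replicates 1 and 4 and control replicates 1 and 3 gave 5. Of 37 tested intracellular genes of the canonical route 3 were higher and 1 lower. Tcf7l1, a TCF/LEF family member that mostly represses, was at 41.8 ± 2.26 CPM with LTβR-Ig and 19.0 ± 13.0 CPM in controls (SD, n = 4 each), and its log2 fold change was 1.13 (SE 0.47, edgeR adjusted p = 0.751). The adaptor gene Dvl2 had a log2 fold change of 0.51, the co-repressor gene Tle1 0.71 and the tankyrase gene Tnks, whose product promotes AXIN turnover, -0.34.

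Of 21 tested genes of the planar polarity and β-catenin independent routes, 2 were higher and 0 lower. For comparison, 3.39% of all tested genes were higher by unadjusted p, and 2.93% were lower. Groups lay apart in the higher direction for 2.36% of all tested genes. Whether 1 or 2 genes in lists this short exceed those shares was not tested. The small GTPase gene Rhoa was at 362 ± 33.8 CPM with LTβR-Ig and 254 ± 32.2 CPM in controls (SD, n = 4 each). Its groups did not overlap, and the log2 fold change was 0.51 (SE 0.12, edgeR adjusted p = 0.281). The co-receptor gene Ptk7 had 1.54 (SE 0.53, edgeR adjusted p = 0.621), also with groups apart. Among 9 other inhibitors and modulators 1 was higher, Frzb, which encodes another Frizzled-related protein (log2 fold change 2.34, SE 0.95, edgeR adjusted p = 0.745). Frzb was at 4.81, 2.81, 5.96 and 10.7 CPM with LTβR-Ig and 1.05, 0.153, 3.32 and 0.29 CPM in controls, with overlapping groups. Of 18 other Wnt-responsive genes 2 were higher, Mmp14 at 0.56 and Fst at 0.55. The Wnt secretion genes Porcn and Wls had 0 of 2 at an unadjusted p under 0.05.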

How the data were processed

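PolyA RNA of LEPR+ marrow cells was sequenced as paired reads of 76 bp, per the labels' protocols. HISAT2, HTSeq and the mm10 build appear in the submitters' processing notes, unversioned. Neither the annotation release nor the strand setting is stated, so antisense overlaps are uncertain. For 8 libraries the authors deposited unnormalized whole-number counts of 52636 genes. Symbols, coordinates and merged exon lengths came from GENCODE M21 (GRCm38, the same assembly as mm10), which gave a symbol to 52489 of them by unversioned ID.

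Differences were tested with edgeR 4.0.16 in R 4.3.3: filterByExpr (minimum count 10, minimum total 15), TMM scaling, robust quasi-likelihood F test on all 8 libraries, no covariate, Benjamini-Hochberg adjustment over 16045 genes, threshold 0.05. The script was tested on simulated data. A standard error is |log2 fold change| / √F. Levels between genes are CPM per kb of exon. Floors of 3 counts cover counting error only. Group and replicate numbers came from the sample titles. Alternatives used DESeq2 1.42.0, limma 3.58.1 (voom), other scalings and filters, a replicate block and leaving out each library.

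Genes and lists were chosen with earlier results of these data known. Per-library values are given, by rule, for the 3 genes of highest level per length in each class, genes with an unadjusted p under 0.05 or groups apart, and Ctnnb1, Axin2, Lef1, Tcf7, Nkd1, Nkd2, Lrp5 and Lrp6. In the other pathway lists genes at an unadjusted p under 0.05 are named. Other genes are given by range and counts, and those with values beyond this were named after their values were seen. Of the other marker lists, those of pericytes, megakaryocytes, Schwann cells, erythroid cells, neutrophils, B and plasma cells and macrophages held 1 gene that was higher (Schwann list) and 2 that were lower (1 each in the pericyte and neutrophil lists) by unadjusted edgeR p.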

Additional observations from a re-analysis of the deposited data

Results flagged for a closer look

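Of 78 sets of 4 library values, 4 held 1 value that stood apart, with a gap to the nearest other that took most of the group's range. For independent, normally distributed values chance gives this for about 1 in 20 sets, and the number is near that. The condition was not checked, and sets drawn from the same libraries are not independent. LTβR-Ig replicate 4 held 69.9 CPM of Lgr4, where its 3 fellow libraries held 8.02 to 12.7. Control replicate 4 held 236 CPM of Fzd5, where the 3 remaining control libraries held 151 to 165. The same library held 30.2 CPM of Ror1, with 18.5 to 19.1 elsewhere among controls. Control replicate 2 held 1727 CPM of Sfrp4, with 1855 to 1871 elsewhere among controls.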

How the results depend on the processing

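Of 27 genes given with values in every library by the rule, 20 kept the sign of their log2 fold change in each alternative run for them (up to 16), and 7 did not. Wnt11 ranged from 2.27 to 2.97, Fzd4 from 0.76 to 1.07, Sfrp2 from 1.08 to 1.52 and Rspo2 from -0.69 to -0.41. Among the alternatives DESeq2 alone called Wnt genes, 3 of them. Rspo2 was no longer at an unadjusted p under 0.05 without LTβR-Ig replicate 2 and control replicate 3, a setting chosen after seeing the data with 2 fewer libraries, where its log2 fold change was -0.50 and the count of lower Wnt genes 0. Over all genes the calls numbered 199 with DESeq2, 17 with limma-voom, 22 with the strict filter, 1 with the replicate block, 1 without those 2 libraries, and 2 to 9 leaving out each library. The other pathway genes at an unadjusted p under 0.05 numbered 3 without those 2 libraries and 4 to 9 leaving out each library. Class medians and the other pathway lists were recomputed as alternatives added after seeing the data. The co-receptor median was -0.21 with the strict filter, and the R-spondin class median -0.16 with limma-voom and -0.0987 with the replicate block. Leaving out each library, medians ran from 0.50 to 0.88 for ligands, -0.0895 to 0.33 for Frizzled receptors, -0.0979 to 0.18 for co-receptors, -0.03 to 0.22 for the R-spondin class, 0.53 to 0.78 for inhibitors, 0.052 to 0.38 for intracellular genes and targets, and 0.18 to 0.45 for all tested Wnt genes. Sign changes were those of Lef1 (-2.35 with limma-voom, -1.42 with the replicate block), Axin2 (-0.0813 without the 2 libraries) and Ror2 (0.039 with limma-voom, 0.15 without the 2 libraries). Leaving out each library, values ran from -0.13 to 0.96 for Axin2, -0.55 to 0.49 for Lef1, -0.0628 to 0.18 for Lrp6, -0.19 to 0.26 for Ror2, -0.11 to 0.34 for Rspo3, -0.18 to 0.19 for Wif1 and -0.0508 to 0.63 for Wnt5a. The cause was not tested.

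Deviations from the group means had correlations of 0.000129 to 0.0749 between same-numbered libraries, and of -0.0875 to 0.0786 between different-numbered libraries. The numbers were therefore not taken as the 4 pairs of the design text, although such values do not exclude that pairs share something. With the replicate number as a block, 0 Wnt genes passed, the unadjusted p was under 0.05 for 6 higher genes and 1 lower gene, and the edgeR adjusted p of Wnt11 was 0.311. Genes with 0 counts in some libraries, such as Lef1, Rnf43 and Dkk1, had intervals too wide to show a difference.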
